A study of Homo sapiens with 20 samples.

Results

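The 10 genes CDKN2A, RASSF1, CDH13, MGMT, DAPK1, GSTP1, RARB, TIMP3, APC and RUNX3 were followed as tumor suppressor genes whose promoters are known to be methylated in lung cancer. They were chosen by symbol, and all 10 were found among the 36076 genes of the expression table. mRNA-seq libraries came from 6 human lung cancer lines, H1299, H1792, PC9, A549, CL1-0 and CL1-5, with 1 library per line and treatment (12 libraries). Omni-ATAC-seq, which maps open chromatin by transposase insertion, came from A549, H1299, CL1-5 and PC9 (8 libraries). DAC-treated cells received 100 nM decitabine (DAC) for 72 hours and then grew for 3 days without drug, and Mock-treated cells received phosphate-buffered saline. Each line is an established tumor line grown in culture, CL1-0 and CL1-5 are related lung adenocarcinoma lines, and no untransformed lung cells were compared.

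DNA methyltransferases copy the methyl marks of CpG dinucleotides onto the new strand after replication, and dense methylation of a promoter CpG island goes together with a closed, silent promoter. DAC is a cytidine analog that is built into DNA, traps these methyltransferases and thereby dilutes methylation as cells divide. In lung tumors the promoters of p16INK4a, RASSF1A, APC, CDH13, DAPK1, MGMT and RARB are among the best known sites of such methylation, and some tumors lose CDKN2A by deletion instead. DNA methylation was not analyzed here, so the values below are mRNA levels and promoter peaks only.

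Whole reads could be recovered from the FPKM values (a level scaled for gene length and library size), and 10 libraries held between 22234485 and 25303899 reads on genes. The H1299 libraries stood apart, with 59735913 reads for Mock and 52634234 for DAC. Among their genes with 1 to 20 reads, the count was even for 85.5% and 81.9%, where the share was 39.2% to 41.5% in the other libraries. The Omni-ATAC-seq libraries labeled CL1-5 and PC9 went against the mRNA-seq of these lines. Of 88 genes that PC9 transcribed and CL1-5 did not, 85.2% carried a peak at the promoter in the Mock list labeled CL1-5, against 31.8% in that labeled PC9. Of 40 genes with the opposite pattern, the shares were 35% and 80%. Peak names in these lists also carry the other line's name. Whether the labels were exchanged was not tested. These libraries are therefore called by their labels throughout, and counts of promoter peaks over all 8 libraries are also given for A549 and H1299 alone. Among identity markers, KRT8, a keratin of simple epithelia, reached an FPKM of 1 in 11 of 12 libraries and KRT18 in 10, but KRT19 and EPCAM in only 8 and CDH1 in 6, and Mock-treated CL1-0 reached it for none of these 5 epithelial markers. The lung lineage markers NKX2-1, SFTPB and NAPSA stayed under 1 in every library. The leukocyte markers PTPRC and CD3E were at or near 0 in each library (highest FPKM 0.0759), CD14, a monocyte marker, reached 1 in 2 libraries, and the fibroblast gene COL1A1 reached 1 in 9 libraries.

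Several of these genes have more than 1 promoter, and 15 promoters were followed by their annotated transcript starts. The 4 printed below carry the contrasts described later, namely the p16INK4a start of CDKN2A, RASSF1A with no peak in any library, RASSF1C with a peak in each, and the proximal APC start, which gained a peak. Each run is read 5′ to 3′ on the strand of the gene in GRCh37, ends near the start, leaves out annotated untranslated bases, and has its CG dinucleotides in capitals.
CDKN2A p16INK4a, chr9:21974866-21975065, minus strand, bases 10 to 209 before the start: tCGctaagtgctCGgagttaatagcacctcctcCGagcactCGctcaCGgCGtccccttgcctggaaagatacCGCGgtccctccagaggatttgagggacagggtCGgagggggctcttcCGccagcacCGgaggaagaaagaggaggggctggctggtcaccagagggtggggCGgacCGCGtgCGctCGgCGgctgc
RASSF1A, chr3:50378368-50378542, minus strand, bases 101 to 275 before the start: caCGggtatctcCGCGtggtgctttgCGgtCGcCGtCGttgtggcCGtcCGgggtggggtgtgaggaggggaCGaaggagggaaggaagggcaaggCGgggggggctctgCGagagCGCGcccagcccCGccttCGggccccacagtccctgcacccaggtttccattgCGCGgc
RASSF1C, chr3:50374896-50375095, minus strand, bases 1 to 200 before the start: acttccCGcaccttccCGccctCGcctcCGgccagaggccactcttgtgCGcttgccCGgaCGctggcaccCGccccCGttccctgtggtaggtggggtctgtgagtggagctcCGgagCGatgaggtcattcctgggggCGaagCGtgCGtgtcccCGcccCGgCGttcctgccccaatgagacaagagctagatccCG
APC proximal, chr5:112073382-112073581, plus strand, bases 1 to 200 before the start: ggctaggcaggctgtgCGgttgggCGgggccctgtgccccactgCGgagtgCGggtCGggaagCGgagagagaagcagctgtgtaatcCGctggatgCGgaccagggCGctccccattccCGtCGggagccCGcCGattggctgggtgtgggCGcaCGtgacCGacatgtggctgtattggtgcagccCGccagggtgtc

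CpG dinucleotides, written CG and the same on both strands, were counted in the 250 bases before each start. The median over 17961 gene promoters was 19 (quartiles 9 and 27), and 97.9% of them held at least 1. RASSF1A and RASSF1C held 25 each, the p16INK4a promoter 20 and the proximal APC promoter 21, so that CpG number did not separate the RASSF1 promoter with a peak in each library from the one with none. The densest promoter was that of MGMT with 36, followed by the proximal RUNX3 promoter with 33 and DAPK1 with 32. At the other end, the proximal RARB promoter held 7, and those of CDH13 and the distal APC start held 12 each. Annotated exons covered all 250 bases before the RASSF1C start, so its printed run lies within an exon. They covered 144 bases at RASSF1A, 9 at p16INK4a and 0 at the proximal APC start.

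Over the 5 lines that the study compared (all but H1792), none of the 10 genes passed the adjusted threshold of 0.05 in limma, in which Mock and DAC libraries of a line were paired. Of 22603 genes tested, 0.119% (27 genes) were higher and 0% lower after DAC at that threshold, so few genes of any kind passed. Without A549 or CL1-5 no gene was higher at that threshold, and 5 were without CL1-0 and 12 without PC9. With voom on the recovered reads, 178 genes were higher and 1 lower, and again 0 of the 10. At an unadjusted p under 0.05 in limma, RASSF1 was higher and MGMT lower, that is 1 and 1 of 10, against 8.07% higher and 4.4% lower over all genes tested. The median log2 fold change of the 10 genes was 0.26, against 0.07 over all genes tested. In bulk libraries, a lower level in each cell and a smaller share of cells with the transcript cannot be told apart.
Within single lines, 54 of 60 gene and line pairs changed by less than 2-fold on the log2(FPKM + 0.1) scale, with 4 pairs at least 2-fold higher and 2 at least 2-fold lower. The pairs past 2-fold higher were TIMP3 in A549 and H1792, and RARB and RUNX3 in PC9. The pairs past 2-fold lower were MGMT in A549 and CDH13 in CL1-5. Over all genes tested, the share at least 2-fold higher was 15.5% for A549, 7.6% for CL1-0, 7.25% for CL1-5, 10.2% for PC9, 8.18% for H1299 and 10.3% for H1792. The shares at least 2-fold lower were 6.69%, 2.14%, 5.05%, 3.1%, 3.15% and 5.79% in the same order of lines. With 1 library per line and treatment, changes within a line have no replicate check. The ratios given with them below are read ratios scaled for library size, as the FPKM values are. Their exact 95% intervals cover counting error only.

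**Figure D1:**
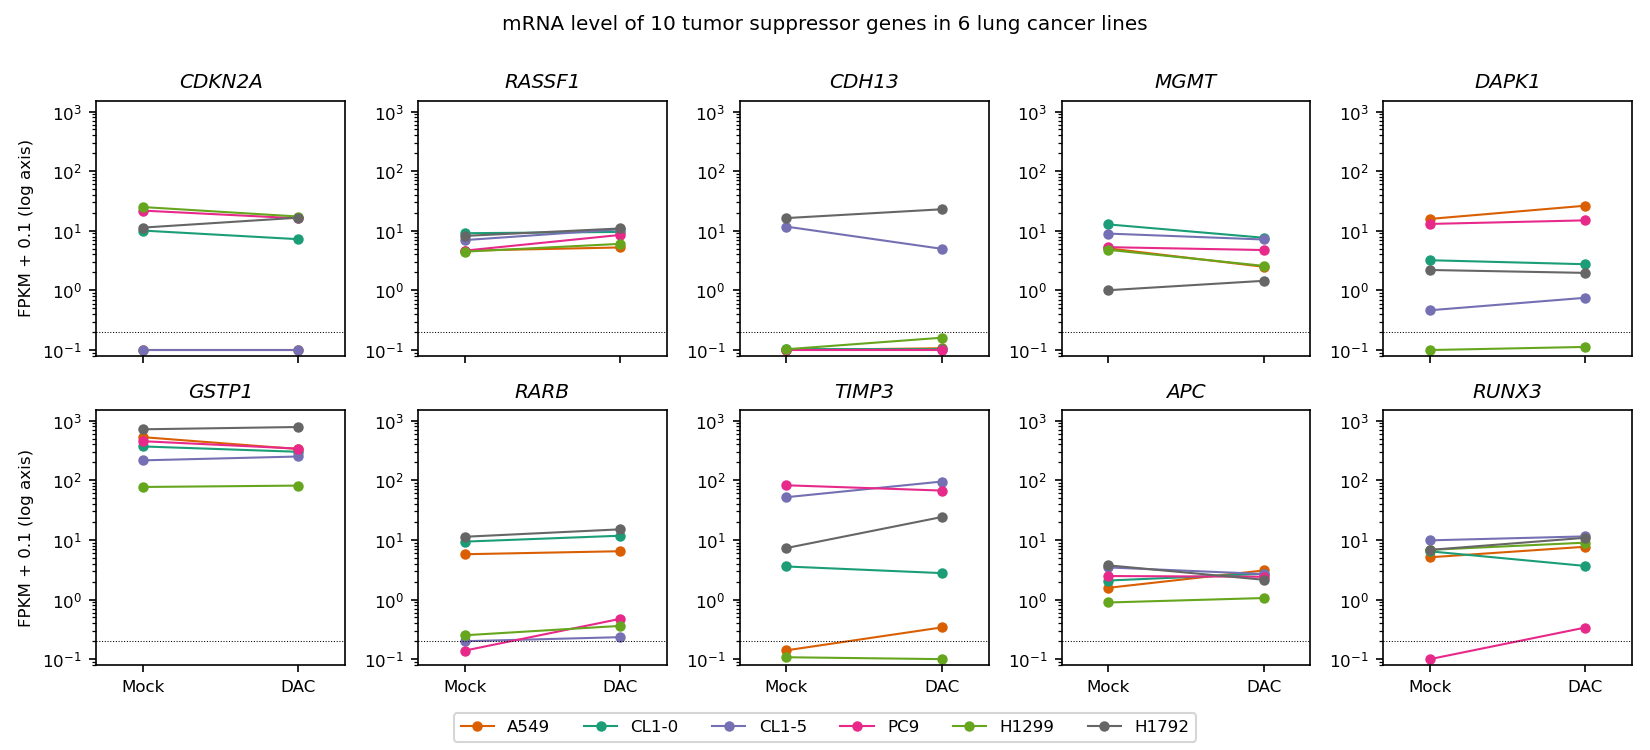
FPKM + 0.1 on a log axis for the 10 genes in Mock and after DAC, with each line of the plot joining the 2 libraries of a cell line and the dotted line marking an FPKM of 0.1. Silent and expressing lines are far apart for genes such as TIMP3, which ranged in Mock from 0.00760 in H1299 to 82.2 in PC9.

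**Figure D2:**
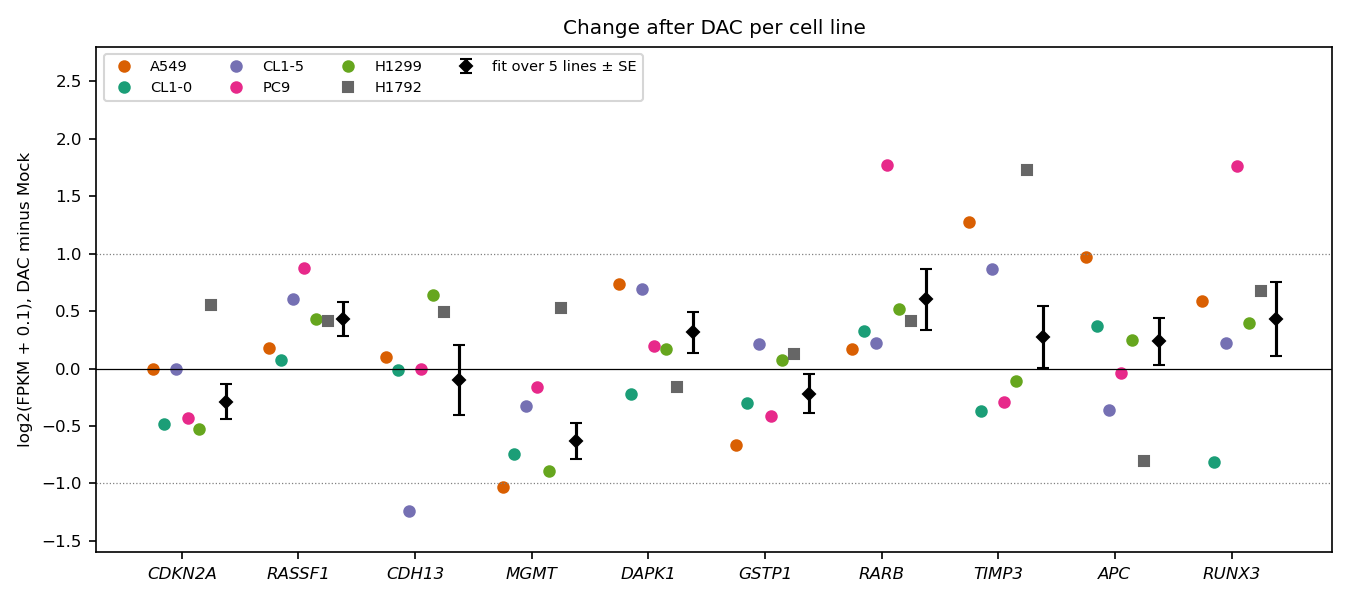
Difference of log2(FPKM + 0.1), DAC minus Mock, per cell line (colored points, H1792 as squares), with the fitted change over 5 lines and its standard error as black diamonds and 2-fold changes as dotted lines. RARB and RUNX3 in PC9 and TIMP3 in A549 and H1792 lie above the upper dotted line, and RASSF1 lies above 0 in 6 of 6 lines.

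CDKN2A (chr9:21967751-21995300, minus strand) encodes p16INK4a, an inhibitor of the cyclin D kinases CDK4 and CDK6, and from another first exon p14ARF, which stabilizes p53. It was not detected in A549 or CL1-5 and was well expressed in the other 4 lines. In Mock the FPKM was 9.97 in CL1-0, 21.7 in PC9, 24.9 in H1299 and 11.2 in H1792, and 0 reads were counted in A549 and CL1-5. After DAC it was 7.12 in CL1-0, 16.1 in PC9, 17.2 in H1299 and 16.5 in H1792, and again 0 reads in A549 and CL1-5, where 3 reads would have given an FPKM of 0.0256 to 0.0323. It was thus lower after DAC in 3 of the 4 expressing lines, higher in H1792, and undetected on both sides in the lines without it. The fitted log2 fold change over 5 lines was -0.29 ± 0.15 (SE), with an adjusted p of 0.465 in limma. The table has 1 row for both products, so p16INK4a and p14ARF could not be told apart, and 15.3% of its exonic bases overlap the antisense gene CDKN2B-AS1.

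Of the neighbors of CDKN2A on 9p21, KLHL9 and DMRTA1 separated A549 from CL1-5, whereas the nearer CDKN2B, MTAP and CDKN2B-AS1 did not. CDKN2B, which encodes the related inhibitor p15INK4b, had 0 reads before and after DAC in both lines, against a Mock FPKM of 1.12 in CL1-0, 5.09 in PC9, 11 in H1299 and 13.5 in H1792. MTAP, a methionine salvage enzyme on the other side of CDKN2A, had 13 reads in each A549 library, and in CL1-5 13 before and 9 after DAC, against at least 448 reads in Mock in each other line. In A549 and CL1-5, CDKN2B was thus undetected beside CDKN2A, whereas MTAP was low but above the floor of 3 reads.
Farther out, KLHL9 had 916 and 1345 reads in Mock- and DAC-treated A549, but 2 and 2 in CL1-5. DMRTA1 had 19 and 67 reads in A549 and 0 and 0 in CL1-5. ELAVL2, a neuronal RNA-binding protein gene, had 2 and 10 reads in A549 and 0 and 0 in CL1-5, but also 0 and 2 in PC9 and 2 and 2 in H1792. CL1-0, the line related to CL1-5, expressed KLHL9 (377 reads in Mock), MTAP (448) and CDKN2A (1019). CDKN2B-AS1, an antisense RNA over CDKN2B, still had 8 and 28 reads in A549 and 16 and 22 in CL1-5, so that the row was not at 0 where CDKN2A and CDKN2B were. None of the 6 neighbors passed the adjusted threshold in limma, and their fitted changes lay between 0.01 (KLHL9) and 0.52 (CDKN2B-AS1). A549 is known to carry a homozygous deletion of CDKN2A; copy number was not measured here, and from 0 reads alone a deleted gene and a silent one cannot be told apart.

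The Omni-ATAC-seq peak lists showed gaps around CDKN2A of unequal length. In A549, no peak lay within the 176 kb around the p16INK4a start in Mock and within 322 kb after DAC, against median gaps of 17.3 kb and 12.7 kb between peaks of chromosome 9, where 4.95% and 1.297% of the gaps were longer. In H1299 the gap was 70.9 kb in Mock (16.8% were longer), and after DAC a peak covered the start. The libraries labeled CL1-5 had a peak over the start in both treatments, although CL1-5 had 0 reads of CDKN2A. Those labeled PC9 had a gap of 854 kb in Mock and 3849.7 kb after DAC, with 9 and 1 longer gaps on chromosome 9, although PC9 expressed CDKN2A at an FPKM of 21.7. In Mock, the gaps of A549 and of the list labeled PC9 both ended at chr9:22008732, at a peak near the CDKN2B start (22009304). Neither DAC list had that peak. The gap in A549 was thus among the longer ones of its chromosome, and the peaks labeled CL1-5 and PC9 went against the mRNA-seq of these lines. With those labels exchanged, the long gap would fall to CL1-5 and the peak over the start to PC9, which was not tested.

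**Figure D3:**
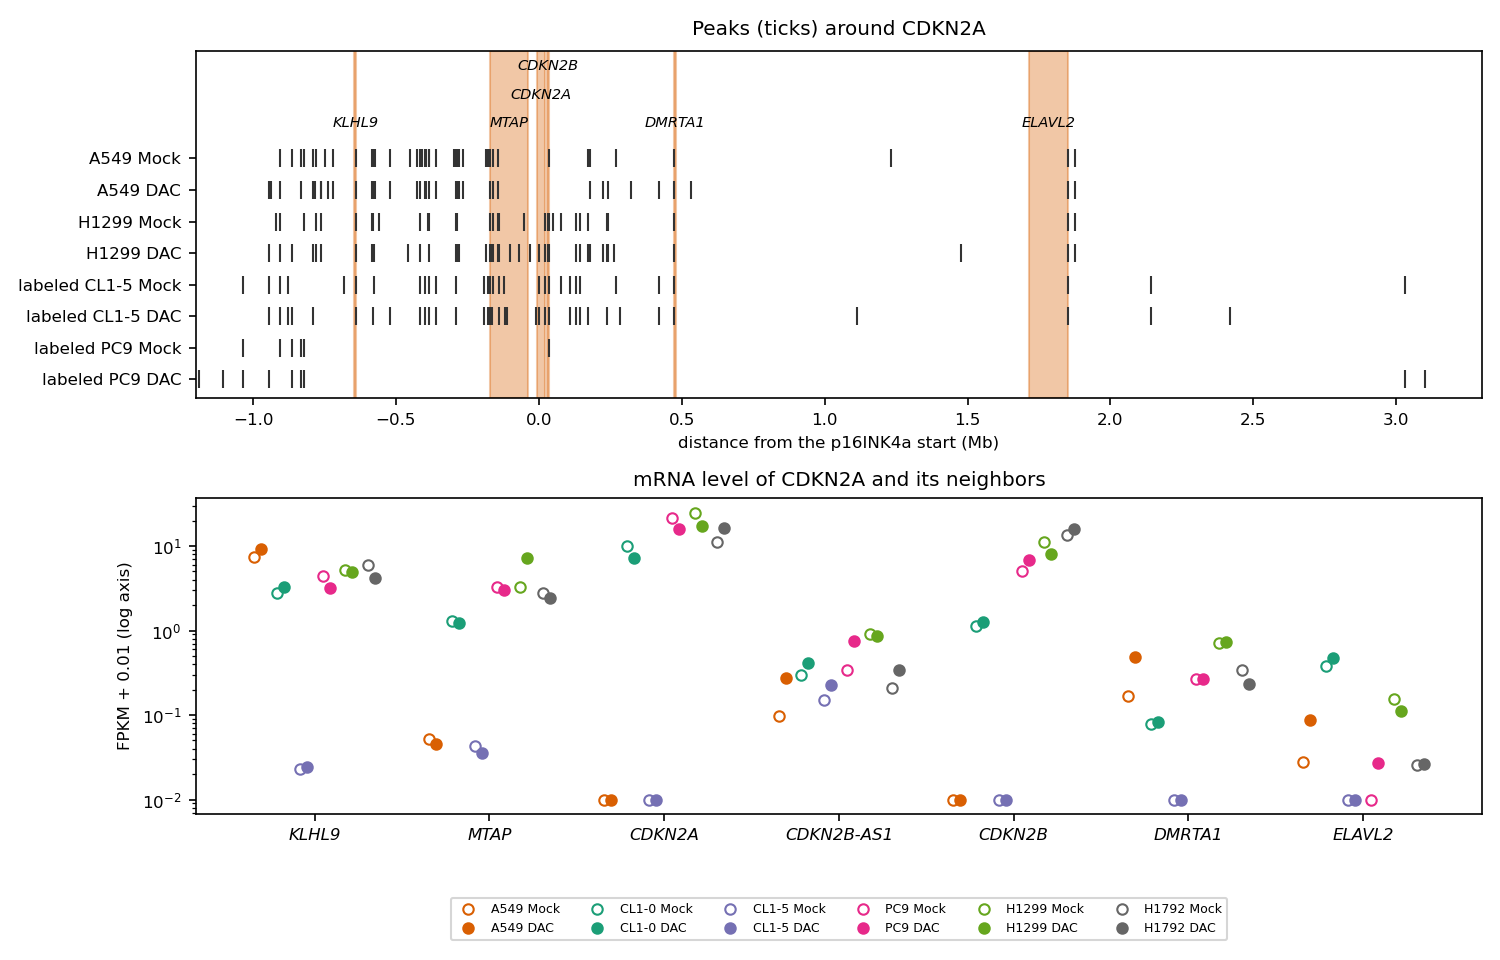
Upper panel, peaks (ticks) of the 8 Omni-ATAC-seq libraries by distance from the p16INK4a start in Mb, with genes shaded. Lower panel, FPKM + 0.01 on a log axis of CDKN2A and its neighbors in 6 lines (open, Mock; filled, DAC). The libraries labeled PC9 have a gap of 854 kb and 3849.7 kb around the start, and the A549 and CL1-5 points of CDKN2A and CDKN2B lie at 0 reads.

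RASSF1 (chr3:50367213-50378411, minus strand) encodes RASSF1A, a scaffold that links to the Hippo kinases and microtubules, and from a downstream start the shorter RASSF1C. It was expressed in every line and was the gene with the most even Mock levels among the 10. The lowest, median and highest FPKM were 4.36, 5.71 and 8.99 in Mock and 5.15, 8.94 and 10.8 after DAC, so the 2 groups of libraries overlapped. Within lines it was higher after DAC in 6 of 6, from a log2 difference of 0.07 in CL1-0 and 0.18 in A549 to 0.87 in PC9, where the FPKM went from 4.55 to 8.41. The ratio was 1.05 (interval 0.958 to 1.16) in CL1-0 and 1.14 (0.988 to 1.31) in A549, and both intervals include 1. Its fitted log2 fold change was 0.43 ± 0.15 (SE), with an adjusted p of 0.324 in limma. RASSF1 therefore did not pass the adjusted threshold.
No peak lay within 1000 bp of the RASSF1A start in any of 8 libraries, whereas RASSF1C had a peak over its start in 8 of 8, with a fold enrichment over local background of 4.52 to 8.90. Within A549 and H1299 alone, the count was 0 of 4 libraries against 4 of 4. Both promoters printed above held the same number of CpGs in 250 bases. The expression row does not separate the isoforms, and 17.9% of its exonic bases overlap RASSF1-AS1 on the other strand.

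DAPK1 (chr9:90112143-90323549, plus strand), a calcium/calmodulin-dependent kinase of apoptosis and autophagy, ranged from undetected to strongly expressed. The Mock FPKM was 15.7 in A549, 12.9 in PC9, 3.11 in CL1-0, 2.1 in H1792, 0.365 in CL1-5 and 0 in H1299. After DAC it was 26.2, 14.8, 2.65, 1.87, 0.652 and 0.0127 in the same order of lines. The order of the lines was unchanged, and 4 of 6 lines were higher after DAC, all by less than 2-fold on the log2(FPKM + 0.1) scale. In H1299, 0 reads in Mock stood against 6 after DAC, at least 2.16-fold against a floor of 3 reads. Since the H1299 libraries hold mostly even numbers, reads there may have been counted in pairs, and 6 reads would then be at that floor. Over 5 lines the fitted log2 fold change was 0.32 ± 0.18 (SE), with an adjusted p of 0.489 in limma. A peak within 1000 bp of the DAPK1 start was present in 7 of 8 libraries, 3 of 4 in A549 and H1299 alone. In H1299 the weak Mock peak (fold 3.21, −log10 q 1.52, not over the start) was absent from the DAC list.

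MGMT (chr10:131265454-131569247, plus strand) removes alkyl groups from guanine in DNA, and its promoter methylation is used as a marker in brain tumors treated with alkylating drugs. It was expressed in all 6 lines and its FPKM was lower after DAC in 5 of 5 lines of the fit. In Mock the FPKM was 12.7 in CL1-0, 8.87 in CL1-5, 5.21 in PC9, 4.97 in A549, 4.69 in H1299 and 0.907 in H1792. After DAC it was 7.54, 7.04, 4.65, 2.39, 2.48 and 1.35 in the same order. The decrease was largest in A549, with a ratio of 0.481 (interval 0.405 to 0.570), and smallest in PC9, with a ratio of 0.893 (0.774 to 1.03). H1792, which had the lowest Mock level, went the other way with a ratio of 1.49 (1.11 to 2.0). The fitted log2 fold change over 5 lines was -0.63 ± 0.16 (SE), with an adjusted p of 0.239 in limma, so MGMT did not pass the adjusted threshold either. Its promoter had a peak over the start in 8 of 8 libraries, with a fold enrichment of 4.25 to 7.36 (4 of 4 and the same range in A549 and H1299 alone). Of its exonic bases, 12% overlap other annotated genes, 7.58% on the same strand.

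GSTP1 (chr11:67351213-67354127, plus strand), a glutathione transferase that detoxifies electrophiles and is silenced by methylation in most prostate cancers, was the most abundant of the 10 transcripts. The lowest, median and highest FPKM were 77.0 (H1299), 409.8 and 715 (H1792) in Mock and 81.2, 316 and 781 after DAC. The groups overlapped, and 3 lines were higher and 3 lower after DAC, with differences between -0.66 in A549 (FPKM 528 to 333) and 0.21 in CL1-5 (215 to 250) on the log2 scale. Its fitted log2 fold change was -0.22 ± 0.17 (SE), with an adjusted p of 0.601 in limma. A peak covered its start in 8 of 8 libraries of the 4 lines with Omni-ATAC-seq, 4 of 4 in A549 and H1299 alone.

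CDH13 (chr16:82660570-83834245, plus strand), the GPI-anchored T-cadherin, was silent in 4 of 6 lines and did not return. Mock-treated A549, CL1-0, PC9 and H1299 had 0, 1, 0 and 2 reads, and after DAC 2, 1, 0 and 36. The 36 reads in H1299 gave an FPKM of 0.0609, under the limit of 0.1 that was used here for silence, with a read ratio of 19.5 (interval 5.01 to 167, or 3.08 to 812 if 2 reads there were 1 independent count). The expressing lines moved apart, CL1-5 from an FPKM of 11.6 to 4.88 (ratio 0.419, interval 0.393 to 0.447) and H1792 from 16.2 to 22.8 (ratio 1.41, interval 1.35 to 1.46). In limma over 5 lines the log2 fold change was -0.10 ± 0.30 (SE), with an adjusted p of 0.901 in limma. Among these 5 lines only CL1-5 expressed CDH13, and without it the gene did not reach the mean FPKM needed for the fit. The fitted value thus averages the change of CL1-5 (-1.24) with those of 4 lines whose levels were at or near 0. Of these 4, H1299 had a change of 0.64, and without H1299 the fitted value was -0.29. The promoter had no peak in A549 and the libraries labeled CL1-5, and peaks of low rank in H1299 and those labeled PC9 (fold 2.7 to 3.0, at percentiles 9.20 to 22.9 of all peaks of the library). The H1299 peaks had a −log10 q of 1.66 and 1.76. H1299 thus had a promoter peak with 2 reads of CDH13 in Mock. Other annotated genes overlap 21.4% of the exonic bases of CDH13.

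TIMP3 (chr22:33197691-33259028, plus strand), an inhibitor of metalloproteinases that binds to the extracellular matrix, ranged from near 0 to among the highest levels of the 10 genes. In Mock the FPKM was 82.2 in PC9, 51.9 in CL1-5, 7.20 in H1792, 3.48 in CL1-0, 0.0406 in A549 and 0.00760 in H1299. After DAC it was 67, 95, 24.1, 2.67, 0.240 and 0 in the same order. A549 went from 4 to 28 reads (ratio 5.93, interval 2.07 to 23.3) and H1792 from 822 to 2660 reads (ratio 3.35, interval 3.09 to 3.62), while H1299 went from 2 reads to 0. Even after DAC, the level in A549 remained far under the Mock level of the 4 expressing lines. The fitted log2 fold change over 5 lines, without H1792, was 0.28 ± 0.27 (SE), with an adjusted p of 0.670 in limma. Of the 4 lines with Omni-ATAC-seq, only H1299 had no TIMP3 promoter peak in either treatment. In A549 the promoter had a peak already in Mock (fold 3.52) and a peak of fold 3.32 after DAC, the latter beside and not over the start.

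RARB (chr3:24729378-25639423, plus strand) encodes retinoic acid receptor beta, a nuclear receptor that is itself induced by retinoic acid through its proximal promoter. Its lines fell into an expressing set, H1792, CL1-0 and A549, and a low set, H1299, CL1-5 and PC9. The Mock FPKM was 11.2 in H1792, 9.25 in CL1-0, 5.64 in A549, 0.151 in H1299, 0.0998 in CL1-5 and 0.0390 in PC9. After DAC it was 14.9, 11.6, 6.35, 0.261, 0.134 and 0.374 in the same order. Each of the 6 lines was higher after DAC, and PC9 moved furthest, from 3 to 32 reads (ratio 9.58, interval 3.0 to 48.9). CL1-5 went from 10 to 12 reads (ratio 1.34, interval 0.530 to 3.46), and the ratio in A549 was 1.13 (0.994 to 1.28). Both intervals include 1, as does that of H1299 (0.868 to 3.39) if 2 reads there were 1 independent count. No line of the low set reached the Mock level of the expressing set. Over 5 lines the fitted log2 fold change was 0.60 ± 0.27 (SE), with an adjusted p of 0.410 in limma, and without PC9 it was 0.31.
The distal RARB promoter had a peak in 8 of 8 libraries and the proximal one in 5 (4 and 3 of 4 in A549 and H1299 alone). The proximal peak was present in A549 before and after DAC, in the Mock list of H1299 (fold 4.08) but not its DAC list, in both libraries labeled PC9 and in neither labeled CL1-5. In H1299 the proximal peak was thus absent after DAC while RARB reads went from 32 to 51. The interval of that ratio (1.72) was 1.09 to 2.77, or 0.868 to 3.39 if 2 reads were 1 independent count.

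APC (chr5:112043215-112181936, plus strand), the scaffold of the complex that marks β-catenin for destruction, was expressed at low to moderate levels in every line. The lowest, median and highest FPKM were 0.791, 2.18 and 3.64 in Mock and 0.958, 2.44 and 2.97 after DAC, so the groups overlapped. It was higher after DAC in 3 lines and lower in 3, from 1.47 to 2.97 in A549 (ratio 2.02, interval 1.8 to 2.28) and from 3.64 to 2.04 in H1792 (ratio 0.561, interval 0.508 to 0.620). Its fitted log2 fold change was 0.24 ± 0.21 (SE), with an adjusted p of 0.629 in limma.
The distal APC promoter had strong peaks in 8 of 8 libraries, at percentiles 95 to 98.6 of all peaks (4 of 4 in A549 and H1299 alone, at 95.2 to 97.0). The proximal promoter, printed above, gained a peak after DAC in H1299 (chr5:112073272-112074166, fold 4.08, −log10 q 4.02) and in the libraries labeled PC9 (chr5:112072995-112074057, fold 4.92, −log10 q 5.63). In A549 and the libraries labeled CL1-5 it had a peak in both treatments (fold 5.55 to 8.29). H1299, which gained the peak, had the lowest APC level of the 6 lines, and its FPKM went from 0.791 to 0.958 (ratio 1.21, interval 1.08 to 1.359, or 1.03 to 1.43 if 2 reads were 1 independent count).

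RUNX3 (chr1:25226002-25291612, minus strand), a runt-domain transcription factor that acts with SMAD proteins downstream of TGF-β, was silent in PC9 only. The Mock FPKM was 9.72 in CL1-5, 6.70 in H1299, 6.69 in H1792, 6.32 in CL1-0, 5.00 in A549 and 0 in PC9. After DAC it was 11.3, 8.88, 10.7, 3.55, 7.57 and 0.239 in the same order. PC9 went from 0 to 25 reads, at least 7.48-fold against a floor of 3 reads, and its level after DAC stayed under that of each other line. CL1-0 was the only line that went down, with a ratio of 0.562 (interval 0.499 to 0.633). The fitted log2 fold change was 0.43 ± 0.32 (SE), with an adjusted p of 0.586 in limma. The distal RUNX3 promoter had no peak in any library. The proximal one had a peak in A549, H1299 and those labeled PC9, and none in those labeled CL1-5, whereas by mRNA-seq PC9 was the silent line.

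Silence in Mock, taken as an FPKM under 0.1, was found in 12 of 60 gene and line pairs, and re-expression in 3 of these 12. A pair counted as re-expressed when it reached an FPKM of 0.1 with more than 3 reads and at least a 2-fold difference on the log2(FPKM + 0.1) scale. CDH13 was silent in 4 lines, CDKN2A, RARB and TIMP3 in 2 each, and DAPK1 and RUNX3 in 1 each. By line, A549, PC9 and H1299 each held 3 silent genes, CL1-5 2, CL1-0 1 and H1792 0. Over all genes tested in limma, the Mock shares under 0.1 were 19.8% in A549, 19.4% in PC9 and 34.8% in H1299. They were 17% in CL1-5, 20.3% in CL1-0 and 21.7% in H1792. The re-expressed pairs were TIMP3 in A549 (1 of 3) and RARB and RUNX3 in PC9 (2 of 3), and they reached an FPKM of 0.239 to 0.374. RARB in CL1-5, at an FPKM of 0.0998, lay just under the limit in Mock and did not meet the rule. Over all genes of the table with a Mock FPKM under 0.1, 11.3% were re-expressed in A549 and 6.83% in PC9, and 4.7%, 4.77%, 6.72% and 6.48% in CL1-0, CL1-5, H1299 and H1792. Among the genes tested in limma, these shares were 28.5% in A549 and 17% in PC9. With 3 silent genes or fewer per line, the members' counts can hardly be read apart from these shares.

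Over the 15 promoters and 4 lines, 40 of 60 promoter and line pairs had a peak within 1000 bp of the start in Mock and 41 after DAC. Peaks were gained in 3 pairs and lost in 2. Shares over all genes were counted per gene only (given below), so these 2 counts have no like share beside them. Those gained were the proximal APC promoter in H1299 and in the libraries labeled PC9, and the p16INK4a promoter in H1299 (chr9:21974645-21975414, fold 3.02, −log10 q 1.76). Those lost were DAPK1 and the proximal RARB promoter, both in H1299. The 15 promoters are a part of the 35 groups of annotated starts of these genes. Over all 35, 31.4% had a peak in Mock and 30.7% after DAC. Outside the 15, the RARB start at chr3:24729378 lost its peak in the libraries labeled CL1-5. The RUNX3 start at chr1:25255289 lost its peak in A549. In A549 and H1299 alone, 20 of 30 pairs had a peak in each treatment, with 2 gained and 2 lost. At a q-value under 0.01, the p16INK4a gain and the DAPK1 loss were no longer there and the proximal RARB promoter was also lost in the libraries labeled PC9, which left 2 gained and 2 lost, and 1 and 1 in A549 and H1299 alone. CDKN2A mRNA in H1299, where the p16INK4a peak appeared, went from an FPKM of 24.9 to 17.2, and the p14ARF promoter had a peak in both treatments (fold 4.62 and 4.60).
Counted per gene over all annotated starts, 8 of the 10 genes had a peak in A549 in both treatments, 9 and 8 in H1299, 8 and 8 in the libraries labeled CL1-5, and 9 and 9 in those labeled PC9. Over 35393 genes, the shares in Mock and DAC lists were 54.5% and 58.2% in A549, 51.8% and 54.7% in H1299, 57.4% and 59.1% in those labeled CL1-5, and 55.9% and 59.5% in those labeled PC9. By gene, none of the 10 gained its first peak, and DAPK1 in H1299 lost its only one, against 3.95% of the genes with a peak in Mock there. At a q-value under 0.01, DAPK1 had no peak in either H1299 list, so this loss was not there. The shares of such losses were 3.64% in A549, 5.56% in the libraries labeled CL1-5 and 3.56% in those labeled PC9, and the shares of genes without a peak that had one after DAC were 12.4%, 10.3%, 11.3% and 12.6% in A549, H1299 and those labeled CL1-5 and PC9. Among coding genes only, chosen after the data were seen, the shares were 72.3% to 78.9%. Each DAC list held more peaks than its Mock list (for example 78199 against 58734 in A549), but with both lists of a line held to the same number of peaks, the strongest by p-value, the same 3 pairs gained a peak, and 3 lost one (the proximal RARB promoter in the libraries labeled PC9 was added). The lists give no read depth.

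Genes of the same pathways were read from lists beside the 10 genes, and no gene of these lists passed the adjusted threshold in limma. Of 35 other genes known to be methylated in lung cancer, 32 were tested, of which 7 were higher and 1 lower at an unadjusted p under 0.05, with a median log2 fold change of 0.21 (all genes tested, 8.07% higher, 4.4% lower and a median of 0.07). The ends of this list were TFPI2, a serine protease inhibitor, with 1.41 ± 0.38 (SE, adjusted p = 0.268 in limma), and RASSF2, a relative of RASSF1, with -0.52 ± 0.22 (adjusted p = 0.393 in limma). TFPI2 was higher after DAC in 5 of 6 lines, as from an FPKM of 6.21 to 39.3 in H1299, and lower in CL1-0 (24.8 to 20.1).
Of 13 retinoid genes tested beside RARB, 5 were higher and 0 lower at an unadjusted p under 0.05, with a median of 0.63, against 8.07% higher, 4.4% lower and a median of 0.07 over all genes tested. Among these were the retinoic acid binding protein CRABP2, the retinol transporter STRA6 and the retinoic acid hydroxylases CYP26A1 and CYP26B1. The largest change was that of PLAAT4, a retinoid-responsive phospholipase, with 1.3 ± 0.61 (SE, adjusted p = 0.427 in limma), and the smallest that of CRABP1, with -0.32. RARA and RARG, the other retinoic acid receptors, had -0.14 and -0.22.
Around CDKN2A, of 12 genes of the CDK4/6, RB and ARF axis, CDKN1A (p21, 0.71 ± 0.16, adjusted p = 0.204 in limma) was higher and CDK4 (-0.40) lower at an unadjusted p under 0.05, and the smallest value was that of CDKN2C (p18INK4c, -0.50). The list median was 0.09, beside the same shares over all genes.
None of 9 Hippo genes, 10 Wnt genes and 7 RUNX and TGF-β partners passed an unadjusted p of 0.05 in limma. Their medians were 0.15, -0.04 and 0.07, and their ends were LATS2 (0.30) and CCN1 (-0.11), AXIN2 (0.48) and NOTUM (-0.17), and CBFB (0.26) and RUNX2 (-0.07). Among 17 close relatives, RASSF3 was higher and the glutathione transferases GSTK1 and GSTZ1 and the DNA repair enzyme ALKBH3 lower at an unadjusted p under 0.05, with TIMP2 (0.63) and GSTZ1 (-0.51) at the ends and a median of -0.06, again beside 8.07% and 4.4% over all genes.

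The gene whose log2(FPKM + 0.1) was most like that of each member over the 12 libraries was sought among 12283 genes whose mean FPKM was at least 1. For CDKN2A it was its neighbor MTAP (Pearson's r 0.98), both being near 0 in A549 and CL1-5. For the others it was MACO1 for RASSF1 (0.94), MTSS1 for CDH13 (0.98), NDRG2 for MGMT (0.94), SLC29A3 for DAPK1 (0.96), ARL15 for GSTP1 (0.97), SLC39A14 for RARB (0.97), LRRC61 for TIMP3 (0.96), NKTR for APC (0.95) and PLIN2 for RUNX3 (0.98). The 12 libraries are pairs from 6 lines, so these values mostly describe differences between lines, and each is the highest of many.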

How the data were processed

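mRNA-seq (12 libraries) and Omni-ATAC-seq (8 libraries) of lung cancer lines were grouped by the line and treatment of their labels, with 1 library each. Per the study's methods, the authors aligned mRNA reads to hg19 with RSEM and bowtie2 (the submitters' notes name TopHat2 2.1.1), counted them per gene, and deposited FPKM values from DESeq2 1.24.0; whether counting used strand is not given in the sources used here. The same table holds a mean normalized signal per gene deposited by the authors, used here only to recover reads. Its columns of the authors' own comparison (a test score, p-values, and a log2 fold change and its error) were not used. For Omni-ATAC-seq, the authors aligned reads with BWA 0.7.17-r1188, removed duplicates (Picard 2.21.4) and called broad peaks per library with MACS2 2.2.5. The deposited peak lists list for every peak a score, the −log10 of its p- and q-value and a fold enrichment; their peak names for CL1-5 and PC9 carry the other line's name.

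The reads behind each FPKM came out whole in 100% of values (tolerance 0.01 reads). limma 3.58.1 in R 4.3.3 was fitted on log2(FPKM + 0.1), which understates changes of low genes, over 22603 genes whose mean FPKM in 10 libraries of 5 lines was at least 0.1, with the line as a block, an intensity trend and Benjamini-Hochberg adjustment. Mock and DAC libraries come from the same line, and after subtracting the mean of each treatment, libraries correlated at 0.731 to 0.900 if they shared a line and at most 0.115 otherwise. The fit was tested on simulated data. Lines are the replicates; separate cultures are not stated, so p-values measure the spread between lines. Intervals of read ratios are exact conditional binomial, and 3 reads were the floor. Promoters are GENCODE starts on GRCh37; in 24 of 24 chromosomes the rightmost peak lay within its length. Older symbols of 3 listed genes were matched through RefSeq names. Python 3.11.15 with pandas 2.3.3 and scipy 1.17.1 was used.

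The members and lists were chosen with earlier results of these data known. Named are the members, the most alike gene of each, the ends of each list or the genes past the threshold, and the 9p21 neighbors; genes past an unadjusted p and RARA and RARG were added after their values were seen. A listed gene that was counted is not reported here by name. Alternatives were H1792 included, no block, other pseudocounts, filters and scalings, no trend, voom on recovered reads, each line left out, and other limits for silence, fold and peaks. Columns of values without a sample numbered 0.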

Additional observations from a re-analysis of the deposited data

Results flagged for a closer look

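For each of the 10 genes, the 6 lines were compared in Mock, after DAC and in their difference on the log2(FPKM + 0.1) scale. In 5 of these 30 sets of values, 1 line lay farther from the nearest other line than Dixon's 95% limit allows. For independent normal values, chance alone gives about 1 such set in 20. These sets share values and hold silent lines, so their number cannot be set against that rate.

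RUNX3 in PC9 lay far below the other lines both in Mock (-3.32, nearest line 2.35) and after DAC (-1.56, nearest line 1.87). The change of RARB in PC9 (1.77) lay above that of the nearest line (0.52). The change of CDH13 in CL1-5 (-1.24) lay below that of the nearest line (-0.01), but A549, CL1-0 and PC9 had at most 3 reads in each library and no measurable change, so it stood apart mainly from lines without CDH13. APC in H1299 after DAC (0.082) lay below the nearest line (1.1), and H1299 is also the line with the deeper libraries of mostly even reads, whose part in this value was not tested.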

How the results depend on the processing

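Of 15 alternative fits, 4 (no block, both filters and no trend) cannot change a fold change. In the other 11, 107 of 109 values of the 10 genes kept their direction, CDH13 having no value without CL1-5. Over all 15, none passed the adjusted threshold (lowest adjusted p 0.172 in limma, for MGMT). CDH13 turned to 0.37 with a pseudocount of 0.01, and TIMP3 to -0.14 with quantile normalization. MGMT ranged from -0.75 to -0.44 and RASSF1 from 0.32 to 0.55. The calls at an unadjusted p under 0.05 moved with the fit. With H1792 included, MGMT had an unadjusted p of 0.065 in limma and RARB 0.034. RASSF1 had 0.064 without CL1-5 and 0.070 without PC9 in limma. Other members passed in some fits, such as CDKN2A with voom (unadjusted p 0.010 in limma) and DAPK1 with quantile normalization (0.042). Rescaling to a common sum moved the median log2 fold change of all genes from 0.07 to 0.17.

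The 27 genes higher after DAC became 53 with H1792, 0 with a pseudocount of 1, 2 without a filter, 17 with quantile normalization, 6 without the trend and 178 with voom on reads (1 lower). Without the replicate block that pairs the libraries of a line, 10 were higher. Leaving out a line gave 0 (without A549 or CL1-5) to 22 higher, with 5 without CL1-0 and 12 without PC9, and 0 to 1 lower (1 without H1299); in these, RUNX3 ranged from 0.10 (without PC9) to 0.74 (without CL1-0), TIMP3 from 0.03 (without A549) to 0.44 (without CL1-0), APC from 0.05 (without A549) to 0.39 (without CL1-5), RARB from 0.31 (without PC9) to 0.71, GSTP1 from -0.32 to -0.10 (without A549) and CDH13 from -0.29 (without H1299) to -0.12. The causes were not tested.

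The 4 pairs past 2-fold higher became 1 with a pseudocount of 1, 7 with 0.01, 7 after rescaling and 0 at 4-fold, and the 2 lower became 1, 2, 1 and 0. Silent pairs after DAC rose from 8 to 15 with a limit of 1, under which 0 pairs were re-expressed instead of 3. Member starts with a peak after DAC went from 30.7% to 46.4% within 3000 bp. Exchanging the labels of the CL1-5 and PC9 libraries cannot change the totals over libraries, and it moved only the lines' own counts. Low read numbers limit what the silent genes can show.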
